A study of Mus musculus with 6 samples.

Results

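In total, 10 genes of the bone morphogenetic protein (BMP) pathway were followed in full-thickness dorsal skin: the ligands Bmp2, Bmp4, Bmp6 and Bmp7, the antagonists Nog and Grem1, the receptor Bmpr1a, and the target genes Id1, Id2 and Id3. They were taken by gene symbol from the deposited expression table, where all 10 were found among 21959 genes, and all 10 passed the filter on low counts that left 14875 genes. The skin came from male C57BL/6 mice that were shaved on the back in the resting (telogen) phase of the hair cycle at 7 weeks of age. The vehicle group (3 mice) received 30% dipropylene glycol in 70% water on the skin every day for 7 days, and the rebamipide group (3 mice) received 3% rebamipide in the same way. Rebamipide is a drug made for gastric ulcer, and the comparison addresses what it changes in skin before hair regrowth.

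BMPs are secreted proteins that bind pairs of type I and type II receptors, after which Smad1, Smad5 and Smad9 are phosphorylated, join Smad4 and switch on target genes. The Id genes are direct targets, and they encode helix-loop-helix proteins that lack a DNA-binding region and hold back differentiation factors. In skin, BMP signals keep hair follicle stem cells at rest, and antagonists such as noggin, the product of Nog, release them into growth. In fat, several BMPs take part in the formation of white and brown adipocytes. In RNA from whole skin, fewer cells of a type and less RNA per cell cannot be told apart.

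Upstream sequences are shown for 2 ligands that moved in opposite directions and for 2 Id targets, since the ligands and the targets are the ends of the pathway compared here. Each is the stretch of 250 bases before the annotated gene start, from RefSeq on build GRCm38.p6, written 5′ to 3′ along the gene. Capitals mark GGCGCC, a core known from BMP-responsive Smad sites, and GGAGCC, both searched on both strands, where the first reads the same on either strand.
Bmp4 (chr14:46390670-46390919, minus strand): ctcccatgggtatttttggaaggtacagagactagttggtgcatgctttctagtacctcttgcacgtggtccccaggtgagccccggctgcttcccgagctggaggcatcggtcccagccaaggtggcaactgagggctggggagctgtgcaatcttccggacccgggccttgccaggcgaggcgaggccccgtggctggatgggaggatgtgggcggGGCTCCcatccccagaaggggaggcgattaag
Bmp6 (chr13:38345466-38345715, plus strand): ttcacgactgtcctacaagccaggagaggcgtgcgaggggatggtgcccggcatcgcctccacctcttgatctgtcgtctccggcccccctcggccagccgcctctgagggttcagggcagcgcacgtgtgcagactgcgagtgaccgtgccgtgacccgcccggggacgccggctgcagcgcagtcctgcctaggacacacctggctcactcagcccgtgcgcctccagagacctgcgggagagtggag
Id2 (chr12:25096093-25096342, minus strand): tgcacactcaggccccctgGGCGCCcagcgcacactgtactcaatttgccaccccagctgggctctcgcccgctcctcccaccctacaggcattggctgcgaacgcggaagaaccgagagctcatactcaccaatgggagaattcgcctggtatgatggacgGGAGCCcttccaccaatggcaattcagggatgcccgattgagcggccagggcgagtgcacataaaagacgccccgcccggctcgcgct
Id3 (chr4:136143572-136143821, plus strand): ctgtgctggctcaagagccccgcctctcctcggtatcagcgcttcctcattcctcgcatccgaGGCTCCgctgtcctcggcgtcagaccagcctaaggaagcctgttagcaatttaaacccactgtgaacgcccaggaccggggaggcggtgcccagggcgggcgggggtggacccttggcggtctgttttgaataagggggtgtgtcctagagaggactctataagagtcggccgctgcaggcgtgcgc
Promoters were found for 6 of the 10 genes (Bmp4, Bmp6, Bmpr1a, Grem1, Id2 and Id3). GGCGCC was present in those of Id2, Bmpr1a and Grem1, and in 9.59% of all 32851 promoter windows of the same length. GGAGCC was present in those of Id2, Id3 and Bmp4, and in 26% of all windows. In Id2 the matches began 231 and 88 bases before the gene start. These are matches of letters in a window and not sites of binding.

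Library totals ranged from 38676018 to 39915276 counts in vehicle skin and from 32709801 to 34706852 in rebamipide skin. Mitochondrially encoded transcripts made up 2.59% to 5.36% of all counts in vehicle skin and 13.3% to 22% in rebamipide skin. Counts were therefore scaled with TMM factors and are given as normalized CPM (read counts scaled to library size). Under this scaling the median over all 14875 genes was -0.17 on the log2 scale, and with total counts alone it was -0.78. The libraries differed in their cell type markers. Krt14, a keratin of basal keratinocytes, had 0 counts in the third rebamipide library and 26099 to 64371 in vehicle skin. The summed level of 7 growing hair follicle genes was 23889, 13069.8 and 269 CPM in vehicle skin, although the mice were labelled telogen, and 1109, 0.663 and 0.229 CPM in rebamipide skin.

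Of the 10 genes, 1 rose (Bmp6) and 3 fell (Bmp2, Bmp4 and Bmpr1a) at an adjusted p-value under 0.05 in edgeR's quasi-likelihood test. Over all genes tested, 14.1% were called higher and 6.51% lower by the same rule. With the thresholds of the study, an absolute log2 fold change over 1 at an unadjusted p-value under 0.05, 1 gene was higher and 5 were lower, the latter with Bmp7 and Grem1 in addition, where 14.3% and 14.5% of all genes passed. The groups did not overlap for Bmp6 on the higher side and for Bmp2, Bmp4, Bmp7, Grem1 and Bmpr1a on the lower side, against 24.5% and 24% of all genes. The median log2 fold change of the 10 genes was -1.29. With DESeq2, 1 gene was higher and 5 were lower, and the rule called 18.3% of all genes higher and 17% lower. With 3 libraries against 3, an exact permutation test of a single gene cannot give less than p = 0.1.

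Bmp2, a ligand that fat and dermis supply to resting follicles, fell 3.49-fold. It was at 21.4, 18.2 and 10.4 CPM in vehicle skin and at 5.53, 5.3 and 3.47 CPM in rebamipide skin. Every rebamipide library lay below every vehicle library. In edgeR this was -1.80 on the log2 scale (standard error, SE, 0.37, adjusted p = 0.0243). The call was lost when any 1 of 4 libraries was left out, namely vehicle 1 or 2 or rebamipide 2 or 3 (adjusted p = 0.0574 to 0.106, edgeR). Of all genes tested, edgeR called 0 without the second vehicle library and 1 without the second rebamipide library.

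Bmp4, which the dermal papilla and other dermal cells make, fell 5.03-fold. It was at 35.1, 20 and 10.3 CPM in vehicle skin and at 7.28, 3.12 and 2.56 CPM in rebamipide skin. The groups did not overlap, and the third vehicle library stood close to the first rebamipide library. The edgeR estimate on the log2 scale was -2.33 (SE 0.62, adjusted p = 0.0448), and the call was lost with limma-voom (adjusted p = 0.0621), with no filter on low counts (adjusted p = 0.0511, edgeR) and when any 1 of the same 4 libraries as for Bmp2 was left out (adjusted p = 0.103 to 0.16, edgeR). A gene on the opposite strand that overlaps Bmp4, Gm15217, had at most 6 counts in any library.

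Bmp7, a ligand made by epidermis and follicle epithelium, showed the largest standard error of the 4 ligands. It was at 61.9, 35.3 and 24.4 CPM in vehicle skin and at 12.1, 3.98 and 0.382 CPM in rebamipide skin, the last from 10 counts. The groups did not overlap, and the third rebamipide library, which has no Krt14 counts, was far below the others. Its log2 change was -2.88 with SE 1.09 (adjusted p = 0.104, edgeR), and DESeq2 called it lower (adjusted p = 0.0106). The DESeq2 call was lost when any 1 of the 3 vehicle libraries or the second rebamipide library was left out (adjusted p = 0.0572 to 0.133) and was kept without the first or without the third rebamipide library (-4.23 and -2.30). Without the first rebamipide library edgeR gave -4.21 (adjusted p = 0.0495), and limma-voom with all libraries gave -3.75 (adjusted p = 0.0522).

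Bmp6 moved the other way. This ligand, which is made by endothelial cells among others and is known for its part in iron balance, rose 4.03-fold. It was at 16.5, 7.45 and 8.34 CPM in vehicle skin and at 30, 41.4 and 59.1 CPM in rebamipide skin. The lowest rebamipide library was above the highest vehicle library. On the log2 scale edgeR gave 2.01 (SE 0.42, adjusted p = 0.0254). With total counts alone it was 1.35 (adjusted p = 0.0469). The call was lost without the second or the third library of either group (adjusted p = 0.0576 to 0.101, edgeR). Bmp6 overlaps Txndc5 on the opposite strand, and whether the counting used strand is not given in the sources used here. Txndc5 had 5776 to 10061 counts in vehicle skin and 2250 to 4039 in rebamipide skin, the opposite direction to Bmp6. Fits with DESeq2 that each left out 1 library, added after these values were seen, called Bmp2, Bmp4 and Bmpr1a lower and Bmp6 higher in 6 of 6 cases. In these fits from 5344 of 14964 genes to 8696 of 15345 genes had an unadjusted p-value under 0.05, so many other genes changed as well.

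**Figure D1:**
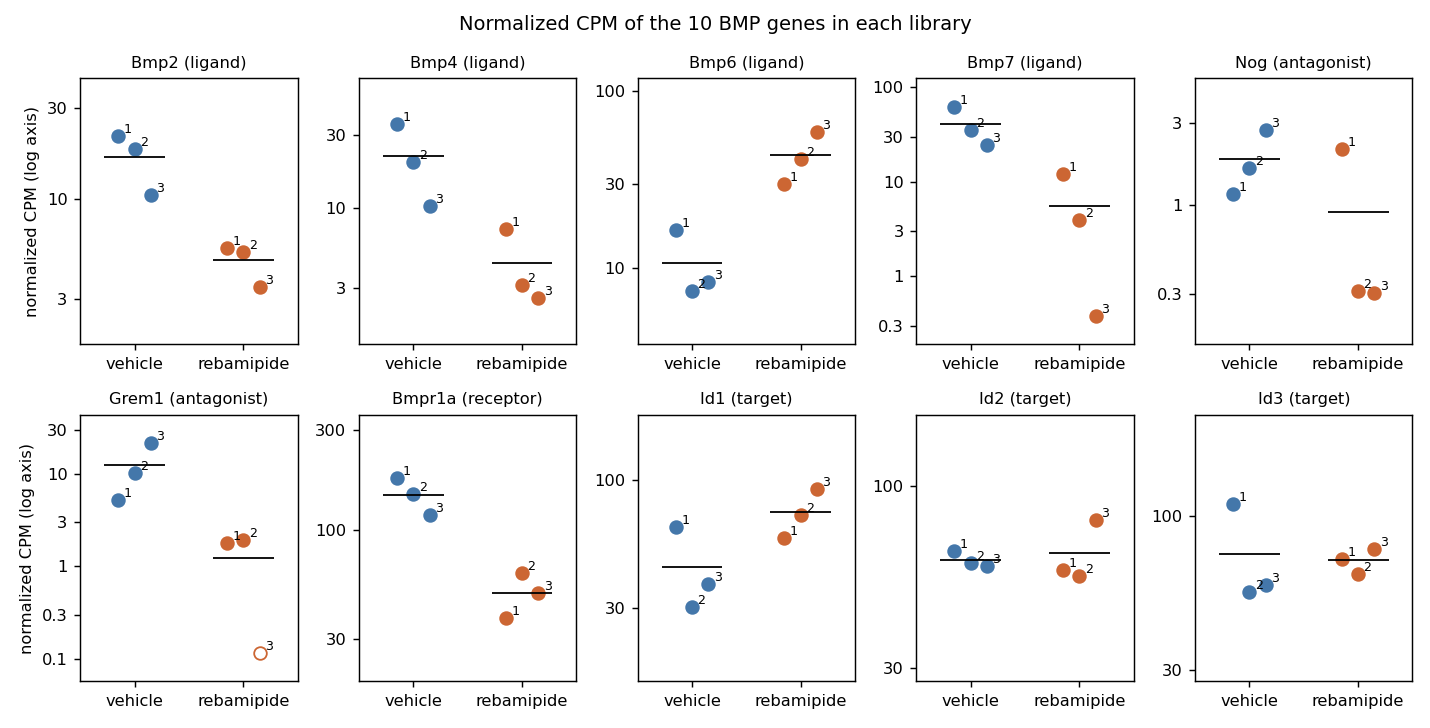
Normalized CPM on log axes of the 10 genes in the 3 vehicle (blue) and 3 rebamipide (orange) libraries, with the replicate number beside each point and the group mean as a line. The open point of Grem1 marks 0 counts and is drawn at the limit of 3 counts. Bmp6 lies higher and Bmp2, Bmp4, Bmp7, Grem1 and Bmpr1a lie lower in every rebamipide library, while Nog, Id1, Id2 and Id3 overlap.

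The make-up of the ligands within a library does not depend on the scaling between libraries. It was followed as the share of each ligand in the summed FPKM of Bmp2, Bmp4, Bmp6 and Bmp7, where FPKM is the read count scaled to gene length and library total. Bmp6 held 10.3%, 7.74% and 13.6% of this sum in vehicle skin and 49.6%, 73.3% and 87.3% in rebamipide skin. It was the smallest of the 4 shares in each vehicle library and the largest in each rebamipide library. Bmp7 held 35.5% to 38.6% in vehicle skin and 0.547% to 19.4% in rebamipide skin. Bmp4 held 29.1% to 37.8% and 6.55% to 20.9%, and Bmp2 held 14.6% to 20.7% and 5.63% to 10.3%. The sum itself was 52.7, 30.5 and 19 FPKM in vehicle skin and 14.4, 10.8 and 13.1 FPKM in rebamipide skin. Unlike the shares, the sum depends on the scaling. Divided by the TMM factors, a step added after seeing the data, it was 41.2, 24.7 and 15.7 against 15.5, 14.5 and 17.4, and the groups overlapped. The shares were chosen after the values were seen and are given as a description.

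The log2 ratio of Bmp6 to Bmp4 within a library was -1.73 ± 0.58 in vehicle skin and 2.63 ± 1.26 in rebamipide skin (SD, n = 3 libraries each), a difference of 4.36 (exact permutation p = 0.1, the smallest possible, adjusted p = 0.2 over 6 ratios). The ratio of Bmp7 to Bmp4 was 0.12 ± 0.25 and -1.33 ± 1.81 (exact permutation p = 0.1, adjusted p = 0.2), and its low mean came mostly from the third rebamipide library, at -3.41. The ratio of Bmp2 to Bmp4 was -0.94 ± 0.39 and -0.39 ± 0.60, and the groups overlapped (exact permutation p = 0.3, adjusted p = 0.36).

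**Figure D2:**
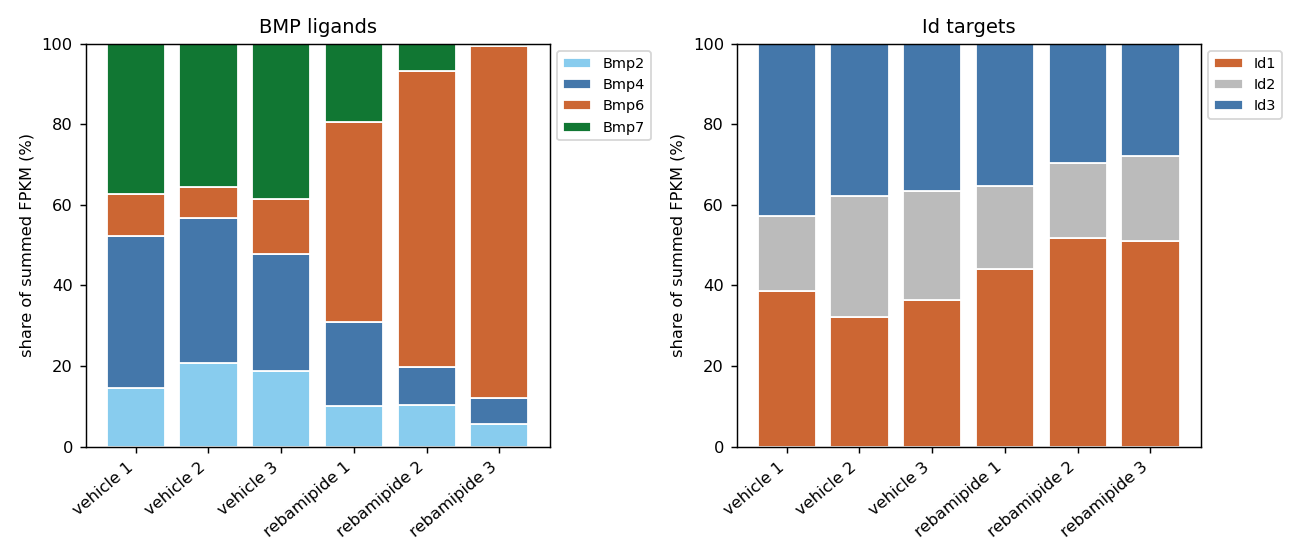
Stacked shares (%) of the summed FPKM of the 4 ligands (left) and of the 3 Id genes (right) in each of the 6 libraries. Bmp6 takes 7.74% to 13.6% of the ligand sum in vehicle skin and 49.6% to 87.3% in rebamipide skin, and Id1 takes 32.1% to 38.7% and 44.1% to 51.7% of the Id sum.

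Nog was the gene with the lowest FPKM of the 10 in each vehicle library. Noggin binds BMPs and keeps them from their receptors, and Nog was at 1.16, 1.64 and 2.74 CPM in vehicle skin and at 2.11, 0.312 and 0.305 CPM in rebamipide skin. The first rebamipide library lay within the vehicle range, while the other two held 8 counts each. The edgeR estimate on the log2 scale was -1.01 with SE 0.87 (adjusted p = 0.408). Leaving out the first rebamipide library gave -2.57 (adjusted p = 0.032, edgeR). In that fit Nog passed the filter on low counts through the vehicle libraries alone, so that it had to differ. That call is given as a description.

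Grem1 encodes gremlin 1, a secreted BMP antagonist of the dermis. It was at 5.23, 10.2 and 21.7 CPM in vehicle skin and at 1.78, 1.91 and 0 CPM in rebamipide skin. The last library held 0 counts, which allows up to 0.114 CPM (3 counts, counting error only). No treated library reached the lowest vehicle library. Its log2 change was -3.32 with SE 1.31 (adjusted p = 0.114, edgeR), and DESeq2 called it lower (adjusted p = 0.0171). That call was lost without the second or the third vehicle library, or without the second rebamipide library (adjusted p = 0.0944 to 0.138, DESeq2). The size of the change was not stable, at -2.62 without the third vehicle library (edgeR), -4.64 with limma-voom and -1.79 with limma on log2(FPKM + 1). The log2 ratio of Grem1 to Nog was 1.30 ± 0.41 in vehicle skin and -1.37 ± 2.57 in rebamipide skin, with overlap (SD, n = 3, exact permutation p = 0.2, adjusted p = 0.3). Of the 3 vehicle libraries, the one with the most Bmp4 and Bmp7 had the least Nog and Grem1.

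Bmpr1a, a type I receptor that keratinocytes, fibroblasts and adipocytes share, gave the smallest p-value of the 10 genes and fell 2.96-fold. It was at 177, 148 and 117 CPM in vehicle skin and at 37.8, 61.9 and 50.1 CPM in rebamipide skin. Every rebamipide library lay well below every vehicle library. On the log2 scale edgeR gave -1.56 (SE 0.27, adjusted p = 0.0149). The call was lost without the second vehicle library (adjusted p = 0.0747, edgeR) and without the second rebamipide library (adjusted p = 0.0598, edgeR). In these fits edgeR called 0 and 1 of all genes tested.

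None of the 3 Id targets was called by edgeR, DESeq2 or limma-voom with all libraries. In edgeR 0 of them had an unadjusted p-value under 0.05, where 5901 of all 14875 genes had. Id1 was at 64.1, 30.4 and 37.7 CPM in vehicle skin and at 58.1, 72.2 and 91.6 CPM in rebamipide skin. The first vehicle library lay within the rebamipide range. The edgeR estimate on the log2 scale was 0.75 (SE 0.33, unadjusted p = 0.0655, adjusted p = 0.149), and with total counts alone it was 0.10 (adjusted p = 0.808). Without the first vehicle library DESeq2 gave 1.11 (adjusted p = 0.00408).

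Id3 was at 109, 55.3 and 58.4 CPM in vehicle skin and at 71.6, 63.7 and 77.4 CPM in rebamipide skin. The 3 rebamipide libraries fell inside the vehicle range, and the log2 fold change was -0.07 (SE 0.30, adjusted p = 0.882, edgeR), against -0.69 with total counts alone (adjusted p = 0.138). Id2 was at 65, 60 and 58.7 CPM in vehicle skin and at 57.3, 55.1 and 79.9 CPM in rebamipide skin. Its log2 fold change was 0.06 (SE 0.20, adjusted p = 0.829, edgeR) and turned to -0.56 with total counts alone (adjusted p = 0.0667).

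The balance among the Id genes was followed as a ratio within each library. The log2 ratio of Id1 to Id3, which does not depend on the scaling, was -0.14, -0.23 and 0.00 in vehicle skin and 0.33, 0.81 and 0.87 in rebamipide skin. The groups did not overlap, and the difference was 0.79 (exact permutation p = 0.1, the smallest possible, adjusted p = 0.2 over 6 ratios). The ratio of Id2 to Id3 was -0.65 ± 0.47 and -0.61 ± 0.19 (SD, n = 3, exact permutation p = 0.9, adjusted p = 0.9). The summed FPKM of the 3 Id genes was 183, 101 and 108 in vehicle skin and 105, 89.8 and 117 in rebamipide skin, with overlap. The difference between the group means was -26.3 FPKM and turned to 25.1 with the TMM factors, again with overlap.

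**Figure D3:**
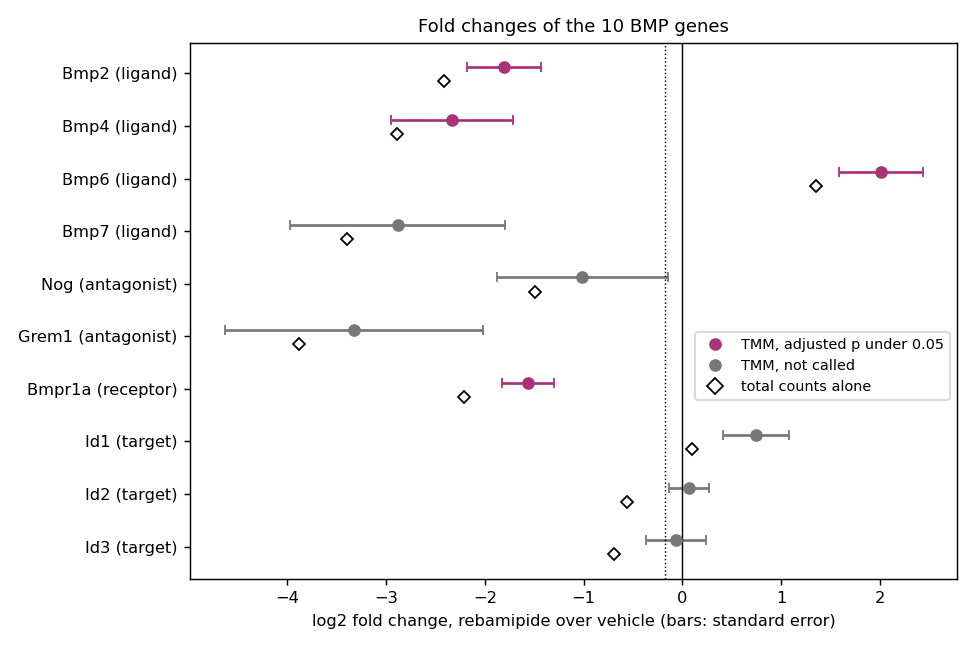
Log2 fold changes of rebamipide over vehicle for the 10 genes with TMM scaling (circles, bars for the standard error, purple where the adjusted p-value is under 0.05) and with total counts alone (diamonds). The dotted line marks the median of all genes tested with TMM scaling, -0.17. Bmp2, Bmp4 and Bmpr1a lie to the left and Bmp6 to the right under both scalings, while Id2 changes sign.

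Levels were compared between the genes as FPKM. In the vehicle group the order was Id3 (51.8 ± 22.6), Id1 (47.4 ± 20.4), Id2 (31.2 ± 2.57), Bmpr1a (28.9 ± 6.67), Bmp7 (12.6 ± 6.36), Bmp4 (12.1 ± 7.27), Bmp2 (5.85 ± 2.11), Grem1 (3.65 ± 2.42), Bmp6 (3.45 ± 1.70) and Nog (1.34 ± 0.55 FPKM, SD, n = 3 libraries). Id3 was above Id1, and Bmpr1a above Bmp7, in 3 of 3 libraries. Among neighbours in this order, Id2 and Bmpr1a, Bmp7 and Bmp4, Bmp2 and Grem1, and Grem1 and Bmp6 changed places between libraries, and Grem1 was also above Bmp4 in the third vehicle library. In the rebamipide group Id1 (50.9 ± 7.60) was above Id3 (32.1 ± 5.31) and Id2 (21.1 ± 3.98) in 3 of 3 libraries, and Bmp6 (8.83 ± 2.30 FPKM) came next, above Bmpr1a (6.25 ± 0.91 FPKM) in each library. Bmp6 thus stood at rank 8, 9 and 9 of the 10 genes in vehicle skin and at rank 4 in each rebamipide library. Bmp4, Bmp7, Bmp2, Nog and Grem1 were at 0.247 to 1.63 FPKM on average, and in the second rebamipide library Bmp2 was above Bmp4. Bmp7 and Bmp2 changed places between libraries, as did Nog and Grem1.

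Other genes of the pathway were taken from a list of 52 by role, of which 44 were tested. Of these, 3 were called higher, 3 lower and 38 not at all by edgeR, where 14.1% of all genes were called higher and 6.51% lower, with a median log2 fold change of -0.64 beside -0.17 over all genes. DESeq2 called 5 higher and 12 lower, against 18.3% and 17% of all genes. Without the second vehicle library, or without the second or the third rebamipide library, edgeR called 0 of them in either direction. Without the first vehicle library it called 0 higher. The edgeR calls of Gdf5, Eng, Atoh8, Sostdc1, Acvr2a and Id4 given below were therefore each lost when 1 of these libraries was left out.

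Among 10 further ligands, 5 were tested and 1 was called higher. Gdf5, a ligand known from joint formation, had 4 to 9 counts in vehicle skin and 16 to 44 in rebamipide skin, a log2 fold change of 3.02 (SE 0.65, adjusted p = 0.0274, edgeR). It was about 0.123 CPM in vehicle skin and 1.02 CPM in rebamipide skin, far below Bmp6. Gdf5 passed the filter on low counts through the rebamipide libraries alone, so that it had to differ, and its call is given as a description. Bmp3 (log2 fold change -1.79, adjusted p = 0.0741), Bmp8a (-4.86, adjusted p = 0.123), Bmp5 (0.56, adjusted p = 0.629) and Gdf10 (-0.07, adjusted p = 0.915) were not called by edgeR.

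Of 16 further antagonists, 13 were tested and 1 fell. Sostdc1, whose product ectodin is made by hair follicle epithelium and blocks BMP and Wnt signals, went from 35.2 ± 10.1 to 6.91 ± 5.06 CPM (SD, n = 3, log2 fold change -2.35, SE 0.57, adjusted p = 0.0366, edgeR). Chrdl1, a chordin-like antagonist, went from 56 ± 25.9 to 18.8 ± 9.91 CPM (adjusted p = 0.0698). Dand5 (log2 fold change 1.56, adjusted p = 0.0522) and Tsku (1.00, adjusted p = 0.0675) were higher in every rebamipide library and were not called by edgeR. Fstl1 and Nbl1, the most abundant of the antagonists, were at 134 and 46 FPKM in vehicle skin and at 44.2 and 13.5 FPKM in rebamipide skin. The FPKM values of Fstl1 did not overlap (124 to 150 and 15.5 to 92.7), while its normalized CPM and both measures of Nbl1 did, and neither gene was called by edgeR (adjusted p = 0.219 and 0.191).

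Among the 10 receptors and co-receptors, 1 rose and 1 fell. Eng encodes endoglin, an endothelial co-receptor, and was at 50.6 ± 19.8 and 135 ± 9.35 CPM (log2 fold change 1.41, SE 0.30, adjusted p = 0.0271, edgeR). Acvr2a, a type II receptor, went from 22.1 ± 3.50 to 8.01 ± 2.64 CPM (log2 fold change -1.47, SE 0.33, adjusted p = 0.0291, edgeR). Bmpr2, the main type II receptor for BMPs, was at 106 ± 11.4 and 52.4 ± 16.8 CPM without overlap (log2 fold change -1.02, adjusted p = 0.051, edgeR). Bmpr1b was at 1.81 and 0.433 CPM (adjusted p = 0.081). Hjv, the most abundant by FPKM, ranged from 57 counts in the third rebamipide library to 9017 in the third vehicle library and is a gene of skeletal muscle, whose list overlapped between the groups (4595 to 22616 and 238 to 28952 CPM).

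None of 6 Smad and Smad regulator genes was called by edgeR, with 1 at an unadjusted p-value under 0.05 and 1 called by DESeq2. Over all 14875 genes, 5901 had an unadjusted p-value under 0.05 in edgeR, and DESeq2 called 18.3% higher and 17% lower. Smad1 was at 43.5 ± 9.99 and 22.2 ± 5.30 CPM without overlap (log2 fold change -0.97, adjusted p = 0.0507, edgeR), Smad9 gave -0.97 (adjusted p = 0.147), Smad5 -0.49 (adjusted p = 0.251), Smurf1 0.30 (adjusted p = 0.292) and Smad4 -0.08 (adjusted p = 0.728). The shared Smad4 was at 75.1 ± 7.89 and 71.1 ± 1.77 CPM.

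Of 10 further targets, 1 rose and 1 fell. Id4, the remaining Id gene, went from 49.3 ± 25.6 to 11.4 ± 2.94 CPM (log2 fold change -2.11, SE 0.47, adjusted p = 0.0291, edgeR), in contrast to the values of Id1, Id2 and Id3. Atoh8, a transcription factor gene that BMPs induce, went from 4.60 ± 1.06 to 10.1 ± 0.71 CPM (log2 fold change 1.13, SE 0.28, adjusted p = 0.0386, edgeR). Msx2 and Dlx3, homeobox genes of the growing hair follicle, were at 25.6 and 88.8 FPKM in vehicle skin and at 1.03 and 4.78 FPKM in rebamipide skin, with overlap (adjusted p = 0.212 and 0.228, edgeR). Msx2 had 7564 counts in the first and 143 in the third vehicle library. Dlx5 (adjusted p = 0.0916) and Runx2 (adjusted p = 0.109) were lower in every rebamipide library and were not called by edgeR.

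By the annotation in the deposited table, 93 genes belong to the term BMP signaling pathway and 75 of them were tested. Of these, 3 were called higher and 8 lower by edgeR, where 14.1% and 6.51% of all genes were, and their median was -0.67 on the log2 scale. DESeq2 called 27 of the 75 in either direction, where it called 18.3% of all genes higher and 17% lower. Bmp6 and Gdf5 were among those called higher, the latter with the limit given above, and the 8 that fell included Bmp2, Bmp4, Bmpr1a, Acvr2a and Sostdc1. The annotated genes and the 2 lists above share members, so these counts are not independent of each other.

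**Figure D4:**
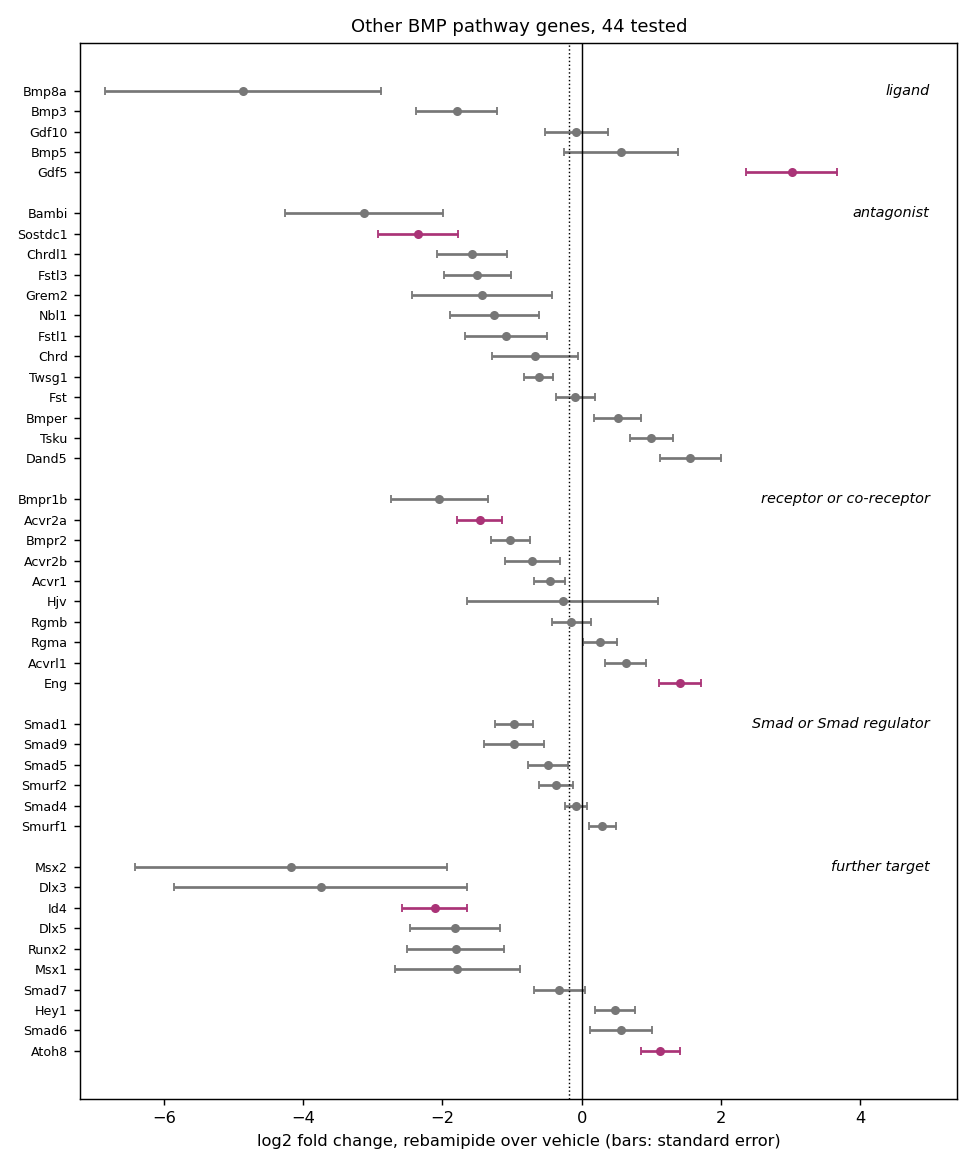
Log2 fold changes (rebamipide over vehicle, bars for the standard error) of the 44 further BMP pathway genes tested, grouped by role, purple where the adjusted p-value is under 0.05. The dotted line marks the median of all genes tested, -0.17. Gdf5, which passed the filter through the rebamipide libraries alone, Eng and Atoh8 are called on the right and Sostdc1, Acvr2a and Id4 on the left.

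Cell type marker lists are given here by their summed levels. Over all 14875 genes, edgeR called 14.1% higher and 6.51% lower, and 5901 had an unadjusted p-value under 0.05. DESeq2 called 18.3% higher and 17% lower. The summed level of 7 basal keratinocyte genes was 2513 to 4053 CPM in vehicle skin and 144 to 1183 CPM in rebamipide skin, with 0 of the 7 called by edgeR (2 at an unadjusted p-value under 0.05, and 2 called by DESeq2), and Krt14 and Krt15 were at 0 counts in the third rebamipide library. The dermal papilla list (6 genes, 1 called lower) was at 23.6 to 115 CPM in vehicle skin and 5.42 to 25.1 CPM in rebamipide skin, with overlap. The fibroblast list (6 genes, 0 called by edgeR, 2 at an unadjusted p-value under 0.05, 2 called by DESeq2) was at 12002 to 17735 CPM and 1849.6 to 15112 CPM, also with overlap. Bmp7, Bmp4, Bmp2 and Bmpr1a were lower in every rebamipide library, as were the basal keratinocyte list and 24% of all genes tested. Each of these genes fell from the first to the third vehicle library. Over the same libraries the basal keratinocyte list was at 2513, 4053 and 3469 CPM. The dermal papilla list fell there, at 115, 44.7 and 23.6 CPM, as did the growing hair follicle list. The part of any of these cell types in the lower values was not tested.

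The endothelial list moved the other way, with 4 of 6 genes called higher, 204 to 459.8 CPM in vehicle skin and 1016 to 1481 CPM in rebamipide skin. The adipocyte list, with 6 of 6 genes called higher, was at 1064 to 2522 and 8587 to 16896 CPM, and the brown adipocyte list, with 4 of 6 called higher, at 203 to 354 and 4645 to 12278 CPM. Ucp1, 1 of the 4, had 0 counts in each vehicle library, passed the filter on low counts through the rebamipide libraries alone, so that it had to differ, and made up most of the sum in rebamipide skin, at 2669 to 8591 CPM. Elovl3 of the same list was lower in every rebamipide library (181 and 66.3 CPM on average, adjusted p = 0.0575, edgeR). Bmp6, Eng, Atoh8 and the ratio of Id1 to Id3 were higher in every rebamipide library, as were these 3 lists. So were 24.5% of all genes tested. In vehicle skin Bmp6 was highest in the first library (16.5 CPM), where the endothelial and adipocyte sums were lowest (204 and 1064 CPM). Eng and Atoh8 rose from the first to the third vehicle library, as did these sums. In rebamipide skin Bmp6 rose with both sums from the first to the third library. The part of these cells in the higher values was not tested. The leukocyte list overlapped (334 to 735 and 196 to 713 CPM), and so did the smooth muscle list (235 to 342 and 309 to 406 CPM). Of 14 marker lists in all, 5 did not overlap between the groups, the fifth being the sebaceous gland list, which holds Scd1 and Pparg, 2 genes that adipocytes express as well. Its sum was mostly Scd1 (6848 and 78028 CPM on average), while its members Awat2 (12.7 and 3.68 CPM, adjusted p = 0.0825, edgeR) and Elovl4 (1044 and 203 CPM, adjusted p = 0.316, edgeR) were lower in every rebamipide library.

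**Figure D5:**
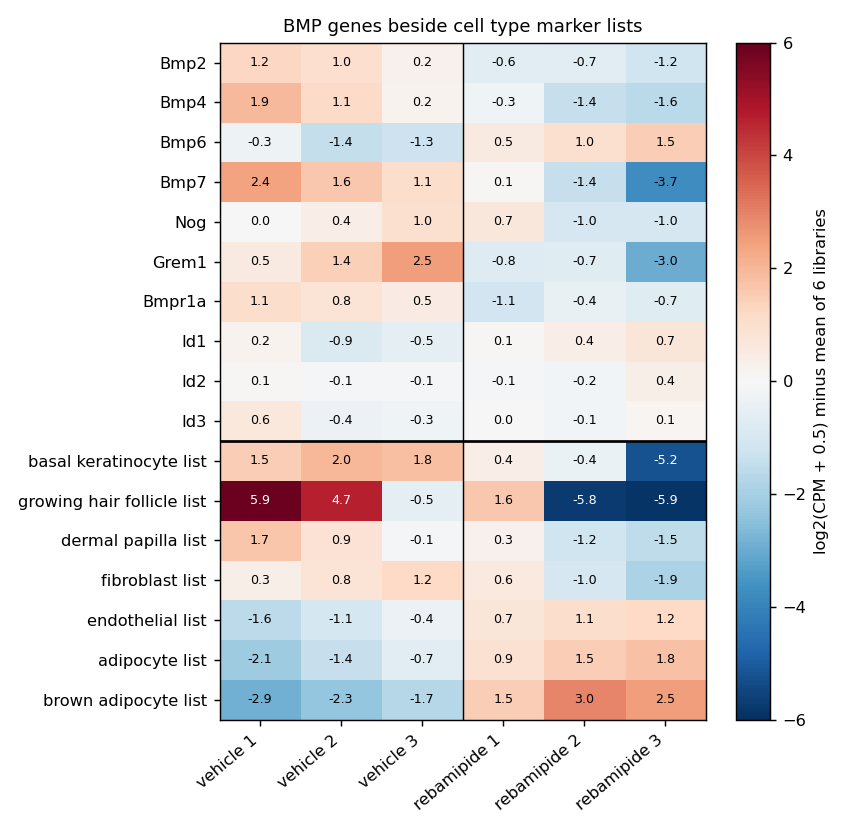
Log2(CPM + 0.5) of the 10 genes and mean of the same over each of 7 marker lists, as the difference from the mean of the 6 libraries (columns). Bmp7 and the basal keratinocyte list are lowest in the third rebamipide library. Bmp6 and the endothelial and adipocyte lists are higher in every rebamipide library than in vehicle skin. The colours of Id2 stay pale, with 55.1 to 79.9 CPM in the 6 libraries.

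The genes whose profile over the 6 libraries was nearest to each of the 10, by root mean square distance of centred log2 CPM, were found among all genes tested. For Bmpr1a these were Naa15 (0.036) and Mtf2, for Bmp4 Ripk4 (0.080), a kinase of keratinocyte differentiation, and Bcl2l14, and for Bmp7 Phldb3 (0.086) and Lingo1. For Bmp2 they were Tasor2 and Mbd4, for Bmp6 Chst11 and Slc19a1, for Nog Glt8d2 and C4b, and for Grem1 Aadacl2fm1 and Esyt3. For Id1 they were Hic2 (0.051) and Phf19, for Id2 Gpank1 and Wdr53, and for Id3 Dtymk and Cx3cl1. The nearest distance was largest for Grem1, at 0.35 log2 units beside a range of 8.69 over the libraries. With 6 libraries and a wide difference between groups, many genes have like profiles, and the names are given as a description.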

How the data were processed

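RNA of full-thickness dorsal skin of 3 vehicle and 3 rebamipide mice was made into poly-A libraries. The read counts per gene were deposited by the authors as whole numbers without normalization, and the deposited FPKM values are the same counts scaled to gene length and summed library counts. The submitters' processing notes name fastp 0.22.0, HISAT2 2.1.0, HTSeq 0.9.1 and the build GRCm39. Whether strand was used is not given in the sources used here. RefSeq promoters are on GRCm38.p6, so no position of the deposited table was set against them, and matches were by symbol.

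All 12 value columns were matched to samples by name. Groups were tested with edgeR 4.0.16 under R 4.3.3 (TMM, filterByExpr, quasi-likelihood test, Benjamini-Hochberg adjustment over all genes tested, called under 0.05). Standard errors were taken as the log2 fold change over the square root of the F statistic. Log2 ratios used FPKM + 0.01 and marker scores CPM + 0.5. DESeq2 1.42.0, limma-voom (limma 3.58.1), limma on log2(FPKM + 1), other scalings and filters, a replicate block and each library left out in turn were alternatives. On simulated counts of 14778 genes at a dispersion of 0.1, with 200 changed 4-fold, edgeR recovered 92% with 11 false calls and DESeq2 92% with 26. The simulation was set up without a shift in composition between groups, while the TMM factors of these libraries ran from 0.746 to 1.28. Its recovery therefore need not hold for these data. The genes, lists and tests were chosen with earlier results of these data known. Beside the 10 genes, the text names, for each role, up to 4 further pathway genes by smallest p-value and 2 by highest FPKM, and the 2 nearest profiles of each gene. Gm15217 and Txndc5 were named after their values were seen. Not every called gene is reported here. P-values measure the spread between these mice, 1 library each.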

Additional observations from a re-analysis of the deposited data

How the results depend on the processing

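The directions of Bmp2, Bmp4, Bmp6, Bmp7, Bmpr1a, Grem1, Nog and Id1 held under each of the 14 or 15 alternatives that could test them, and Bmpr1a was called in 13 of 15, Bmp2 in 11, Bmp6 in 10 and Bmp4 in 9. Counts of calls did not hold. Over all genes, edgeR's 2093 higher and 968 lower calls became 1258 and 3752 with total counts alone. The lower calls were 2534 with DESeq2, 1512 with at least 10 counts in every sample and 4809 with limma on log2(FPKM + 1). With single libraries left out the counts ran from 0 to 2810 higher and from 0 to 1971 lower. Without the second vehicle library 0 genes passed (4116 at an unadjusted p-value under 0.05, smallest adjusted p = 0.0747), and without the second rebamipide library 1 passed. Of the 10 genes, 5 were lower with DESeq2 and with log2(FPKM + 1), against 3 in edgeR. With single libraries left out, 0 to 1 were higher and 0 to 5 lower in edgeR, the 5 including Nog with the limit given above. In DESeq2, chosen after seeing the data, 1 to 2 were higher and 3 to 6 lower. Over all genes, 5344 to 8696 had an unadjusted p-value under 0.05 in those DESeq2 fits. By the study's thresholds, 1 to 2 were higher and 3 to 5 lower. Of the further pathway genes, the 3 higher and 3 lower calls of edgeR became 5 and 12 with DESeq2 and 1 and 16 with total counts alone. The lower calls became 5 with upper-quartile factors, 9 with at least 10 counts in every sample and 19 with log2(FPKM + 1). With single libraries left out they were 0 to 5 higher and 0 to 12 lower. Of the annotated genes, 8 lower calls became 25 with total counts alone, and with single libraries left out 0 to 4 were higher and 0 to 23 lower. Marker lists without overlap were 5 with TMM and 8 with total counts alone.

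The replicate numbers did not pair the libraries, since the deviations of same-numbered libraries correlated at -0.016, -0.038 and 0.0032 over genes. With the replicate block, 0 of the 10 genes were called higher, and Bmp6 gave 2.07 (adjusted p = 0.0683, edgeR). The sign of Id2 turned to -0.56 with total counts alone, to -0.55 with log2(FPKM + 1), to -0.0015 with upper-quartile factors, to -0.0057 with at least 10 counts in every sample, and to -0.12 (edgeR) and -0.090 (DESeq2) without the third rebamipide library, with 0.17 (edgeR) and 0.19 (DESeq2) the highest values when 1 library was left out. That of Id3 turned to 0.0011 with limma-voom, to 0.0026 with the block, to 0.29 and 0.31 without the first vehicle library, and to 0.011 and 0.026 without the second rebamipide library, with -0.26 the lowest value when 1 library was left out and -0.69, with total counts alone, the lowest of all. The cause was not tested. Nog and Grem1 rest on few counts in the rebamipide group, which limits the precision of their folds.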
